A study of Mus musculus with 8 samples.

Results

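The subunit genes of the respiratory chain and of ATP synthase were compared between mouse keratinocytes lacking the type I keratins (KO) and wild-type (WT) keratinocytes. The members were every gene on the array whose symbol began with Ndufa, Ndufb, Ndufc, Ndufs, Ndufv, Uqcr, Cox4, Cox5, Cox6, Cox7, Cox8 or Atp5, together with Cyc1 and the Sdh genes. The rule used symbols alone and took 86 of the 16593 gene symbols that had a probe, through 108 probes. By function 34 of them belonged to complex I, 3 to complex II, 9 to complex III, 18 to complex IV and 16 to complex V. The other 6 were 5 assembly factors of complex I (Ndufaf1, Ndufaf3, Ndufaf4, Ndufaf5 and Ndufaf7) and Cox7a2l, a factor of supercomplex assembly. Ndufa4 carries a complex I symbol but is counted with complex IV, where its protein resides. Sdha was not analysed here.

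Both groups were cultures of keratinocytes of the C57Bl6 strain, taken from embryonic skin at E18.5 and grown to confluency in medium made for keratinocytes. The KO cells carried the type I keratin deletion and the WT cells the normal genes, and the labels name no further allele or agent for either group. Each group had 4 Illumina arrays, numbered 1, 2, 3 and 1.1, the last being labelled as a second replica of 1. Whether the replicates came from separate embryos is not given in the labels, and the p-values therefore reflect no more than the spread of these cultures, which may be technical.

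Arrays KO 3 and KO 1.1, and arrays WT 1 and WT 1.1, differed with an SD of 0.213 and 0.205 on the log2 scale over bright probes, whereas the other 10 pairs within a group differed with an SD of 0.418 to 0.640. KO 1.1 was thus not the neighbour of KO 1 that its label gives. The arrays of a close pair differed by less than other arrays of their group did, so their mean served as 1 replicate. This gave 3 replicates for KO and 3 for WT, and KO replicate 3 and WT replicate 1 below are these averages. Of the deleted genes Krt14, Krt17, Krt16 and Krt10, the summed intensity was 0.337 to 10.1 on the KO arrays and 44415 to 50588 on the WT arrays. Negative values counted as 0 in this sum and in all marker sums below. The 5 keratinocyte markers other than Krt14 were above background on all 8 arrays, with sums of 14649 to 19158 in KO and 17145 to 20323 in WT. Melanocyte markers were also present, 4 of 6 on all 8 arrays, with sums of 357 to 1614 in KO and 916 to 3469 in WT. Fibroblast markers summed to 201 to 479 in KO and 56.3 to 1040 in WT, with 2 of 8 above background on all 8 arrays and 1 of 8 on none. The part of these other cells in the results below was not tested. In bulk cultures such as these, fewer cells of a type and less RNA per cell cannot be told apart.

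The respiratory chain passes electrons from NADH and succinate to oxygen through complexes I, II, III and IV, and complexes I, III and IV pump protons out of the mitochondrial matrix as they do so. ATP synthase, or complex V, lets the protons flow back and makes ATP. Apart from complex II, whose subunits are all encoded in the nucleus, the complexes also hold subunits encoded by mitochondrial DNA, for which no probe was found under a mitochondrial symbol, so the members are nuclear genes. Nuclear respiratory factor 1 (NRF1) and the ETS-family factor GABP are known regulators of many of these genes.

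No respiratory chain or ATP synthase gene changed past the threshold, and the differences that were measured were small. Of the 86 members 79 had a probe bright enough to test, and 0 of them passed limma's test at an adjusted p under 0.05, where 0.708% of all 9881 genes tested did (0.293% higher and 0.415% lower in KO). At so low a share, 0 calls among 79 genes do not set the members apart from other genes. The smallest adjusted p of a member was 0.212. Among all genes the number called was 70, and it was 5 without WT replicate 1 and 264 without KO replicate 3, while the members called stayed at 0 whichever replicate was left out. The log2 differences of the 79 ran from -0.52 for Ndufv3 to 0.36 for Ndufb7, with a median of -0.08, against a median of 0.02 over all genes tested. Values below 0 were measured for 56 of the 79, or 70.9%, against 47.5% of all genes. A difference larger than 0.5 in either direction was measured for 2 of the 79, Ndufv3 and Sdhc, or 2.53%, against 18.01% of all genes. These values are on the scale of log2(intensity + 16), which understates the change of dim genes.

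The 95% interval of the difference lay between -1 and 1 on the log2(intensity + 16) scale for 77 of the 79 members, or 97.5%, against 78.2% of all genes tested. The exceptions were Sdhc, with an interval of -1.07 to 0.06, and the dim Cox6b2, with -1.05 to 0.49. The members also spread little between replicates. Their median SD within a group was 0.13 on the log2 scale, against 0.23 over all genes. Most tested members read above 98.8, the 75th percentile of all probes on array KO 1. Whether other genes of similar intensity differ and spread as little was not tested. The deposited values bear the marks of quantile normalization, which gives the arrays nearly the same set of values, so a change common to all transcripts could not be seen.

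Before adjustment, 4 of the 79 members (5.06%) had a p under 0.05, against 17.1% of all genes. The 4 were all lower in KO, against 8.68% of all genes that were lower and 8.45% that were higher at this limit. Their number was 0 without KO replicate 1 and 1 without WT replicate 1 or WT replicate 2. It was 2 with the replicate number as a block, 7 with array weights and 11 with an offset of 64 in place of 16. The share of all genes at this limit is not given here for these settings, and the 17.1% does not apply to them. All 4, Ndufv3, Ndufc2, Ndufa1 and Ndufb5, encode accessory subunits of complex I and read lower in KO. In 17 members, or 21.5%, every KO replicate lay below every WT replicate, against 10.9% of all genes. In 3 members, or 3.80%, every KO replicate lay above, against 11.6% of all genes. Both directions together made 22.5% of all genes. An exact permutation test of 3 against 3 replicates cannot give a two-sided p below 0.1. The plot of all tested members shows the log2 differences by complex.

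**Figure D1:**
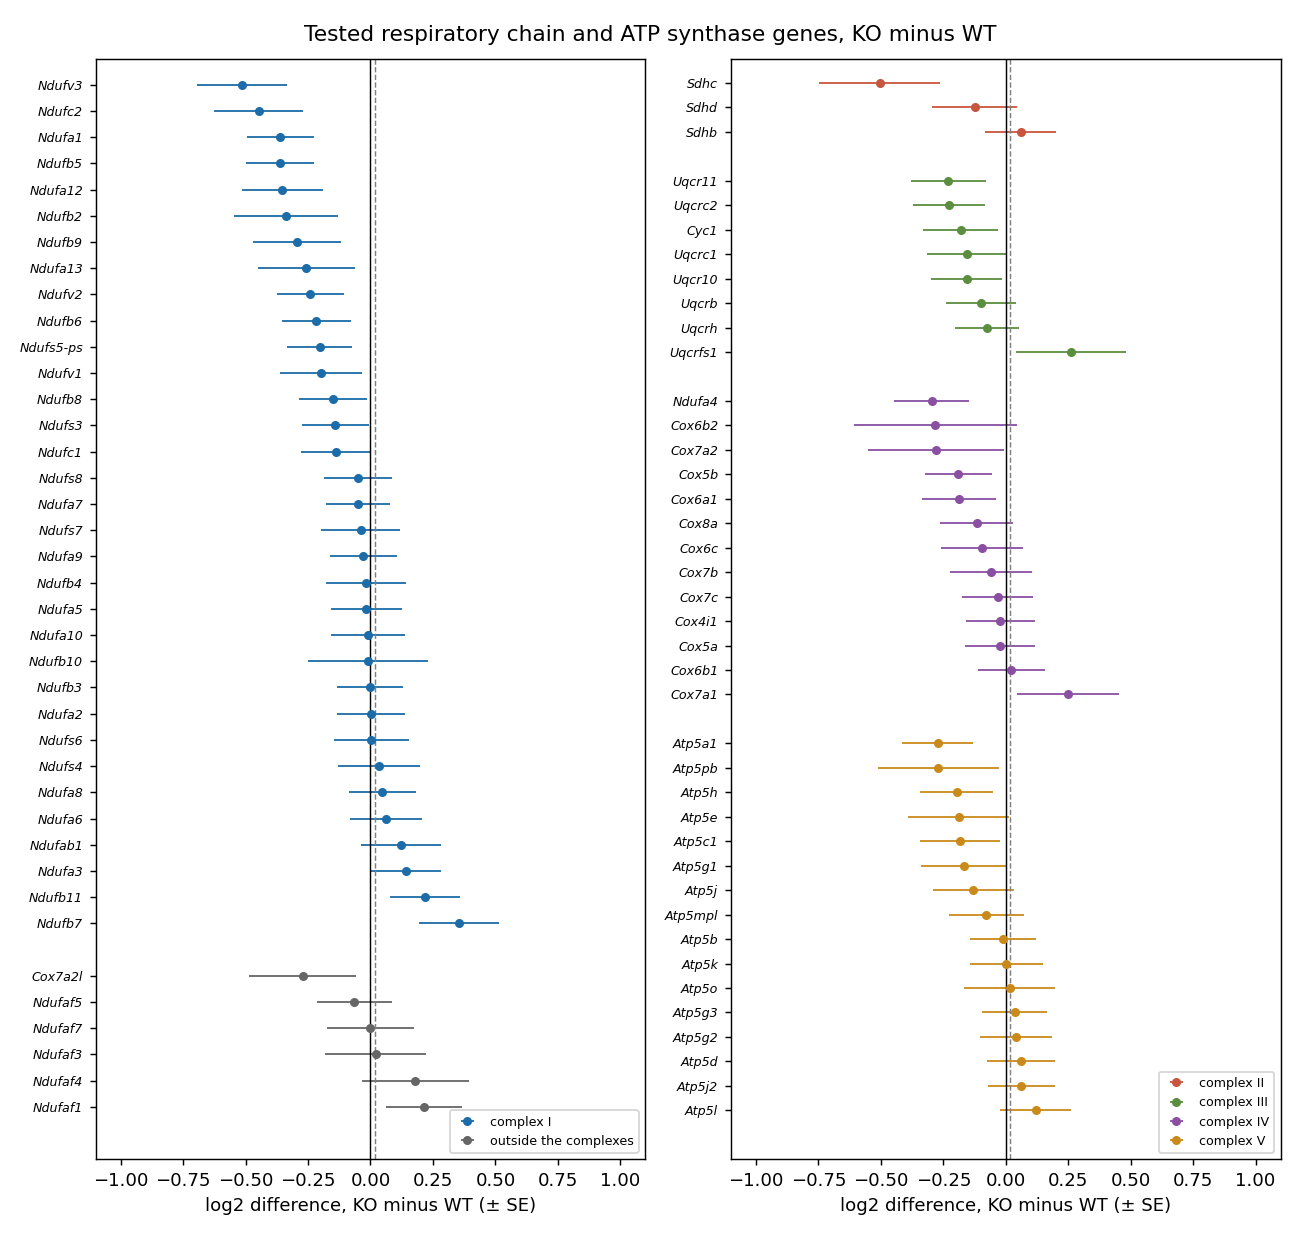
Log2 difference (KO minus WT, horizontal axis) with its limma standard error for the 79 tested members, 1 gene per row, grouped and coloured by complex; the dashed line is the median of all genes tested, 0.02. The points run from -0.52 for Ndufv3 to 0.36 for Ndufb7, and most lie left of 0.

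The 250 bases that precede the transcription start in RefSeq (GRCm38.p6) are shown for the 4 members with an unadjusted p under 0.05, to set their promoters beside their values. The window of Atp5h, a stalk subunit of ATP synthase, is shown as an example that holds both an NRF1 and an ETS motif. Capitals mark motif matches on either strand, for the NRF1 motif (GCGC, then A and any 1 base, then GCGC), the ETS core CCGGAAG and the GC box GGGCGG. The matches marked here do not overlap each other.
Ndufv3, chr17:31519865-31520114, plus strand: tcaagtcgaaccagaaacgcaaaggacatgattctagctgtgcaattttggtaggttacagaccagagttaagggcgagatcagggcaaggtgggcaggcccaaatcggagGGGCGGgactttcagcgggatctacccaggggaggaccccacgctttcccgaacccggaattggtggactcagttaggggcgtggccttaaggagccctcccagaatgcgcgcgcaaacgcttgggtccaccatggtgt
Ndufc2, chr7:97399753-97400002, plus strand: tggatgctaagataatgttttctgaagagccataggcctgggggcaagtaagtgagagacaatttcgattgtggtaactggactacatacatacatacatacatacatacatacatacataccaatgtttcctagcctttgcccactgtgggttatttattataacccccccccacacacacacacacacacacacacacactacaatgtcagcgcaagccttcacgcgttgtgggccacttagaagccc
Ndufa1, chrX:37191239-37191488, minus strand: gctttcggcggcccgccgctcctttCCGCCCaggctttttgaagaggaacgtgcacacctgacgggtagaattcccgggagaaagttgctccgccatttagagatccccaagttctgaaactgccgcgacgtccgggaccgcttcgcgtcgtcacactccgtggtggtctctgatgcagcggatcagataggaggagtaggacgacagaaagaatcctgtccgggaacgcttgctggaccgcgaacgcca
Ndufb5, chr3:32736813-32737062, plus strand: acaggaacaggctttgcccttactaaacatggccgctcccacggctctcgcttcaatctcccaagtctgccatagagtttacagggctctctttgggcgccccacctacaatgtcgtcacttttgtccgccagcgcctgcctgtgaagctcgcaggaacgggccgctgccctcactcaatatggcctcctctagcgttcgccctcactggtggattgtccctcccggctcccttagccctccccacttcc
Atp5h, chr11:115419920-115420169, minus strand: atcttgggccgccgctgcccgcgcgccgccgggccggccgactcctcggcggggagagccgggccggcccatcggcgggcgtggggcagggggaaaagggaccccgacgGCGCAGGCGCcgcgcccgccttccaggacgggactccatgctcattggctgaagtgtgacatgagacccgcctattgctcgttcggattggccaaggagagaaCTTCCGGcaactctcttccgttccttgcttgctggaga

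None of the windows of Ndufv3, Ndufc2, Ndufa1 and Ndufb5 held the NRF1 motif or the ETS core in these letters, and Ndufv3 and Ndufa1 held 1 GC box each. Of the 79 tested members 68 had a promoter in the RefSeq table. The NRF1 motif stood in 11 of these 68, or 16.2%, and in 8.97% of the 8035 tested genes of the array that had one. The ETS core stood in 13 of the 68, or 19.1%, against 15.1%, and the GC box in 27, or 39.7%, against 62.6%. The 11 members with an NRF1 motif were Ndufa5, Ndufa8, Ndufb4, Ndufs6, Sdhd, Cox6a1, Atp5c1, Atp5g2, Atp5h, Atp5k and Ndufaf4, and their log2 differences ran from -0.20 to 0.18. Atp5h itself read 737, 704 and 660 in KO and 860, 712 and 847 in WT, so that KO replicate 1 lay above WT replicate 2. A match describes the letters of a window and is not evidence of binding.

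Complex I, which takes electrons from NADH, had 33 of its 34 members tested. Of the 33, 24 read lower and 9 higher in KO, with a median log2 difference of -0.05. Without overlap of the replicates 10 (30.3%) read lower and 3 (9.09%) higher, against 10.9% and 11.6% of all genes. The median deviation of the 33 genes from their own means was -0.03, -0.04 and -0.04 for KO (replicates 1, 2, 3), against 0.06, 0.05 and 0.07 for WT, so the groups did not overlap in this summary.

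Ndufv3, an accessory subunit of the NADH-oxidising module, had intensities of 678, 605 and 884 in KO replicates 1, 2 and 3 and of 1077, 1081 and 931 in WT. KO replicate 3 came within 46.6 of the lowest WT replicate, and the groups did not overlap. The log2 difference was -0.52 ± 0.18 (SE), or 0.700-fold, with a limma adjusted p of 0.212. Its other bright probes read lower in KO as well, by -0.66 and -0.45 on the log2 scale, and neither overlapped between the groups. The probe at -0.45 was dim, at 6.89 to 25.4 against a background limit of 6.30. With limma's array weights, which gave 940 calls among all genes, Ndufv3 was called (-0.66, adjusted p = 0.0370), the range over its alternatives being 0.0370 to 0.514.

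Ndufc2, an accessory subunit of the membrane arm, read 513, 716 and 649 in KO and 803, 966 and 798 in WT. All KO replicates lay below all WT replicates, with a log2 difference of -0.45 ± 0.18 (SE; limma adjusted p = 0.257). Ndufa1, a small membrane-arm subunit encoded on the X chromosome, read 1632, 1701 and 1519 in KO and 2162, 2084 and 1996 in WT, a difference of -0.36 ± 0.13 (limma adjusted p = 0.235). Ndufb5, another membrane-arm subunit, read 349, 384 and 382 in KO and 474, 513 and 458 in WT, likewise -0.36 ± 0.14 (limma adjusted p = 0.240). In Ndufa1 and Ndufb5 the gap between the groups exceeded the range within either group.

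The further complex I genes whose KO replicates all lay below WT were Ndufa12, Ndufv2, Ndufb6, the probe annotated to Ndufs5-ps, Ndufb8 and Ndufc1. Their log2 differences ran from -0.35 for Ndufa12 to -0.14 for Ndufc1. Ndufs5-ps is annotated as a transcribed pseudogene of chromosome 16, and whether its probe also reads the Ndufs5 transcript was not tested. Ndufb6 read 2683, 3010 and 2584 in KO and 3096, 3305 and 3204 in WT, and its other bright probe differed by -0.20. For Ndufc1 a further bright probe differed by 0.08, opposite to the -0.14 of the probe used.

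The genes that read higher in KO without overlap were Ndufb7, Ndufb11 and Ndufa3. Ndufb7, a subunit on the intermembrane-space side, read 83.3, 76.1 and 68.1 in KO and 56.8, 46.1 and 65.1 in WT, a log2 difference of 0.36 ± 0.16 (limma adjusted p = 0.314). Ndufb11, also X-linked, was close to the background limit of 6.30, at 9.07, 9.58 and 13.9 in KO and 7.38, 6.95 and 6.68 in WT. Ndufa3 read 814, 800 and 802 in KO and 650, 771 and 768 in WT, a difference of 0.14.

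The core subunits, among them those that hold the flavin and the iron-sulfur clusters, were represented by Ndufs3, Ndufs7, Ndufs8, Ndufv1 and Ndufv2. All 5 read lower in KO, by -0.24 to -0.04 on the log2 scale. Ndufv2 read 1883, 1911 and 1717 in KO and 2233, 2067 and 2216 in WT (-0.24 ± 0.13, limma adjusted p = 0.418). The probe of the sixth core gene on the array, Ndufs1, stayed below the background limit on all 8 arrays, and Ndufs1 was not tested. Among the 28 accessory genes 19 read lower and 9 higher, with a median of -0.02. The smallest difference in complex I was that of Ndufb3, at -0.00 ± 0.13, with a 95% interval of -0.31 to 0.31. Ndufs6 read 4657, 3994 and 3720 in KO and 4346, 3939 and 4014 in WT, so its groups overlapped (0.00 ± 0.15).

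**Figure D2:**
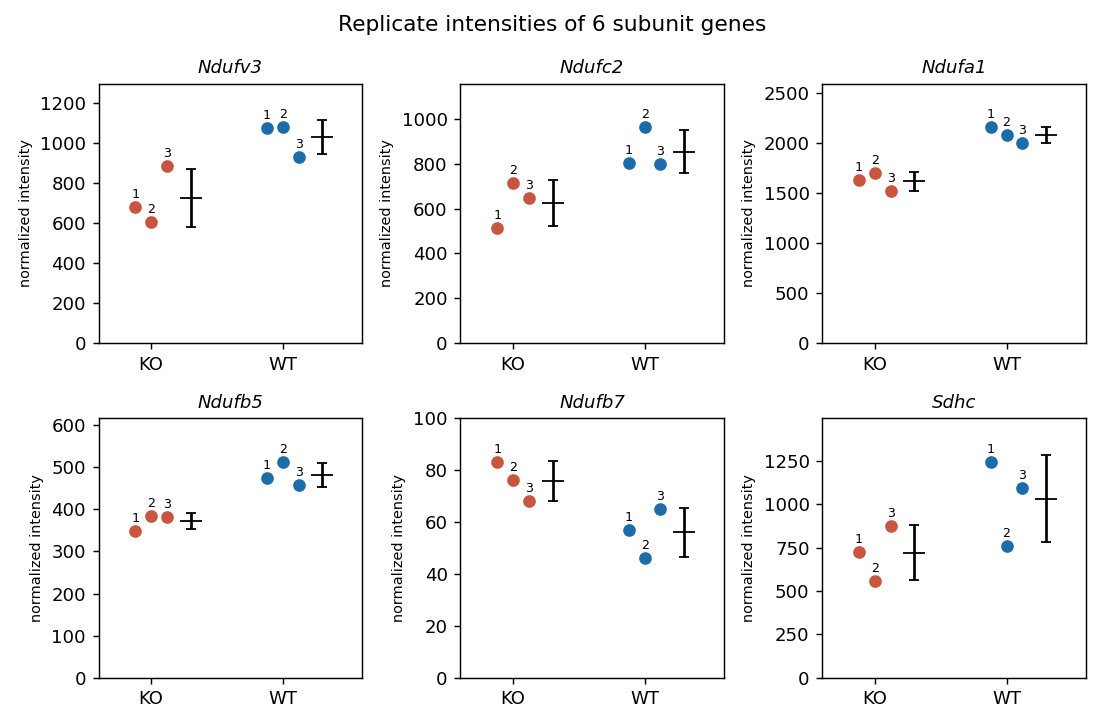
Normalized intensity (vertical axis, starting at 0) of 6 genes in KO and WT cells, with each replicate as a numbered point and the mean ± SD (n = 3) beside the points. Ndufv3, Ndufc2, Ndufa1 and Ndufb5 lie lower and Ndufb7 higher in KO without overlap, while the groups overlap in Sdhc.

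Complex II, succinate dehydrogenase, links the citric acid cycle to the chain and was represented by its iron-sulfur subunit Sdhb and its membrane anchors Sdhc and Sdhd. Sdhc read 727, 559 and 876 in KO and 1248, 758 and 1096 in WT. KO replicate 3 lay above WT replicate 2, so the groups overlapped, and the log2 difference of -0.50 ± 0.24 (SE) did not pass (limma adjusted p = 0.343). A dimmer Sdhc probe differed by -0.04. Sdhd read 240, 246 and 187 in KO and 239, 279 and 218 in WT (-0.12 ± 0.17), and Sdhb read 340, 360 and 360 in KO and 346, 303 and 369 in WT (0.06 ± 0.14). The 3 genes thus gave 2 lower values and 1 higher, none of them without overlap, against 22.5% of all genes without overlap in either direction. Their median of -0.12 was -0.01 without KO replicate 3.

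Complex III passes electrons from ubiquinol to cytochrome c, and 7 of its 8 tested members read lower in KO, with a median of -0.16. Without overlap 4 of the 8 read lower and 0 higher, against 10.9% and 11.6% of all genes. Uqcrc2, a core protein of the matrix side, read 3603, 3475 and 2998 in KO and 4135, 3698 and 3949 in WT (-0.23 ± 0.14, limma adjusted p = 0.474). Uqcr11 read 2169, 2438 and 2610 in KO and 2756, 3100 and 2615 in WT (-0.23 ± 0.15, limma adjusted p = 0.483), with KO replicate 3 just under WT replicate 3. Uqcr10 read 5652, 5326 and 4630 in KO and 5737, 5711 and 5893 in WT (-0.16 ± 0.14).

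Uqcrh, the acidic hinge protein that meets cytochrome c1, had groups apart by a small amount, with 1065, 1080 and 1075 in KO and 1142, 1120 and 1135 in WT (-0.08 ± 0.13). Its standard error was larger than the difference because limma draws the spread of each gene toward that of all genes. Uqcrfs1, the Rieske iron-sulfur protein, was the member that read higher in KO, by 0.26 ± 0.22, but its probe lay at the background limit, with 4.13, 12.9 and 6.99 in KO and 5.74, -0.77 and 7.47 in WT. The probe of Uqcrq stayed below the limit on every array. In the median deviation by replicate, complex III read -0.03, -0.05 and -0.14 in KO and 0.06, 0.04 and 0.11 in WT.

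Complex IV, cytochrome c oxidase, has subunits that exist as a common form and as forms of particular tissues. Of its 11 common genes 10 read lower and 1 higher in KO, with a median of -0.10. Ndufa4 read 4533, 5621 and 5255 in KO and 6227, 6705 and 5948 in WT (-0.30 ± 0.15, limma adjusted p = 0.363), without overlap. Cox5b, a subunit on the matrix side, read 4052, 4095 and 3643 in KO and 4501, 4592 and 4351 in WT (-0.19 ± 0.13, limma adjusted p = 0.526), also without overlap. The remaining common genes overlapped between the groups with the probe used. Of the 13 tested members of complex IV, 2 (15.4%) read lower and 0 higher without overlap, against 10.9% and 11.6% of all genes.

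For Cox6a1, the common partner of the muscle form Cox6a2, the values were 1977, 1712 and 1997 in KO and 2228, 2306 and 1946 in WT (-0.19 ± 0.15). Its other bright probe differed by -0.20, without overlap of the groups. Cox7a2, the common partner of the muscle form Cox7a1, varied more, with 195, 195 and 131 in KO and 141, 279 and 238 in WT (-0.28 ± 0.27). Cox4i1 read 4249, 4178 and 3790 in KO and 4269, 3851 and 4288 in WT, a difference of -0.02 ± 0.14 with a 95% interval of -0.35 to 0.30. Cox6b1, Cox7b, Cox8a and Cox5a differed by 0.02, -0.06, -0.12 and -0.02 on the log2 scale.

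Of the 7 tissue forms 5 were too dim to be tested, and Cox7a1 and Cox6b2 were dim. Cox4i2, known from lung, Cox8b of heart and muscle, and Cox8c and Cox7b2 of testis were not above the limit on any of the 8 arrays, and Cox6a2 was above it on 0 of 4 KO arrays and 1 of 4 WT arrays. Cox7a1 read 16.2, 5.67 and 19.1 in KO and 7.77, 8.71 and 8.76 in WT, above the limit on 3 of 4 KO and 4 of 4 WT arrays, with overlapping groups (0.25 ± 0.20, limma adjusted p = 0.589). The testis form Cox6b2 read -3.04, 10.1 and 14.0 in KO and 5.09, 11.7 and 15.1 in WT. Of the skeletal muscle markers, Acta1 read 173 and 167 on the KO arrays 3 and 1.1, above the limit on 2 of 4 KO arrays and 0 of 4 WT arrays. Myog read 10.3 and 7.32 on these arrays, and the remaining muscle markers lay below the limit there. The 7 markers summed to 25.2 to 197 in KO and 14.4 to 37.0 in WT, 0 of 7 being above background on all 8 arrays and 1 of 7 on none. Cox7a1 was also highest on those 2 KO arrays, at 17.3 and 20.9, while on KO array 1 Cox7a1 read 16.2 and Acta1 -0.738. The part of other cells in the Cox7a1 values was not tested.

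ATP synthase had all 16 members on the array tested, of which 9 read lower and 7 higher in KO, with a median of -0.04. In the catalytic F1 head 4 of 5 genes read lower. Atp5a1, the alpha subunit, read 1421, 1667 and 1503 in KO and 1720, 1963 and 1864 in WT (-0.27 ± 0.14, limma adjusted p = 0.388), and was the only member of complex V whose groups did not overlap. Without overlap 6.25% of complex V thus read lower and 0% higher, against 10.9% and 11.6% of all genes. Atp5b, the catalytic beta subunit, read 12399, 11917 and 12528 in KO and 12449, 13003 and 11668 in WT, a difference of -0.01 ± 0.13 with a 95% interval of -0.32 to 0.30. Quantile normalization can give different arrays the same value, and Atp5b held the value 13003.3 on 3 of the 8 arrays.

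Of the 11 genes of the membrane sector and the stalks 5 read lower and 6 higher, with a median of 0.00. Atp5pb, a stator subunit, read 328, 623 and 559 in KO and 560, 580 and 628 in WT (-0.27 ± 0.24). Its difference rested on KO replicate 1, without which it was 0.00. Atp5k read 28.0, 26.4 and 24.7 in KO and 21.1, 29.9 and 28.3 in WT (0.00 ± 0.15). The median deviation of complex V by replicate was -0.05, 0.06 and -0.05 in KO and -0.01, -0.01 and 0.06 in WT, so the groups overlapped, as they did for complex II.

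**Figure D3:**
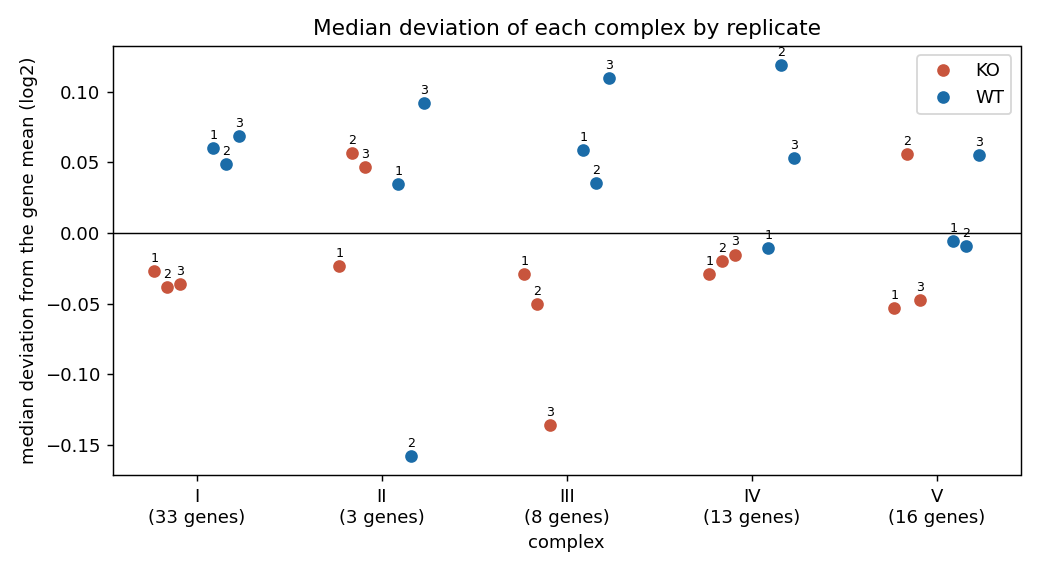
Median over the tested genes of each complex of the deviation from the gene's own mean (log2, vertical axis) in each numbered KO and WT replicate. The KO points lie below the WT points for complexes I, III and IV, by a narrow margin in complex IV (-0.02 in KO replicate 3 against -0.01 in WT replicate 1), and overlap for complexes II and V.

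The medians of the 5 complexes ran from -0.16 for complex III to -0.04 for complex V, and no test of a difference between complexes was made. Outside the complexes, Cox7a2l read 293, 458 and 507 in KO and 503, 479 and 508 in WT (-0.27 ± 0.21, limma adjusted p = 0.575), with KO replicate 1 apart from the others. The 5 Ndufaf assembly factors differed by -0.06 to 0.21, and all overlapped between the groups.

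In 8 further lists of mitochondrial genes 0 genes were called, against 0.708% of all genes. An unadjusted p under 0.05 was found in 18 of their 178 tested genes (10.1%), against 17.1% of all genes. The assembly factors share 5 genes with the members. Assembly factors of the complexes had 18 of 33 genes lower and a median of -0.00. Of these 33 genes, 3 (9.09%) had an unadjusted p under 0.05. Surf1, an assembly factor of complex IV, read 60.1, 58.7 and 60.5 in KO and 33.5, 36.1 and 26.3 in WT (0.67 ± 0.14, limma adjusted p = 0.0908), with the groups far apart relative to their spread. Acad9, which serves complex I assembly, read 105, 130 and 172 in KO and 181, 228 and 218 in WT (-0.59 ± 0.20, limma adjusted p = 0.198).

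Citric acid cycle genes had 9 of 12 lower in KO and a median of -0.14. An unadjusted p under 0.05 was found for 2 (16.7%), near the 17.1% of all genes. Suclg1, a subunit of succinyl-CoA ligase, read 1725, 1926 and 1772 in KO and 2663, 2329 and 2292 in WT (-0.42 ± 0.14, limma adjusted p = 0.195). Fh1, fumarate hydratase, read 609, 613 and 545 in KO and 812, 715 and 819 in WT (-0.40 ± 0.14, limma adjusted p = 0.216). Neither overlapped between the groups. Pyruvate dehydrogenase genes had 4 of 7 lower and a median of -0.15, and Pdk1, a kinase that inhibits the enzyme, read 62.8, 71.5 and 89.0 in KO and 123, 105 and 150 in WT (-0.65 ± 0.18, limma adjusted p = 0.139). Pdp1, the opposing phosphatase, differed by -0.40.

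Genes of mitochondrial protein synthesis and import had medians above 0. Mitochondrial ribosomal proteins had 51 of 71 higher in KO and a median of 0.08. An unadjusted p under 0.05 was found for 7 (9.86%), against 17.1% of all genes. Of the 71, 6 were higher and 1 lower at this limit, against 8.45% and 8.68% of all genes. Their median deviation was 0.15, 0.12 and -0.11 in KO and -0.13, -0.10 and 0.07 in WT, so that KO replicate 3 lay on the other side of 0 from the other KO replicates. Mrpl38 read 1319, 945 and 876 in KO and 602, 496 and 714 in WT (0.77 ± 0.21, limma adjusted p = 0.134), and Mrps6 differed by 0.60 ± 0.19. Membrane translocases had 14 of 20 higher and a median of 0.17, with Timm17a, of the inner membrane, at 0.43 ± 0.19 and Tomm20, an outer membrane receptor, at 0.41 ± 0.19. The translocase values of KO replicate 3 lay below those of the other KO replicates, with a median deviation of -0.19 against 0.21 and 0.18 for the other KO replicates and -0.20, -0.12 and 0.03 in WT.

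Regulators of mitochondrial biogenesis had 8 of 17 lower and a median of 0.07. Ppargc1b, a coactivator of NRF1 and related factors, read 53.6, 40.1 and 29.1 in KO and 82.5, 38.3 and 123 in WT (-0.69 ± 0.35, limma adjusted p = 0.360), and Tfb1m, which modifies the mitochondrial ribosomal RNA, differed by 0.55 ± 0.26. In both the groups overlapped. Electron carriers and coenzyme Q synthesis had 7 of 10 lower, with a median of -0.06 and, for Coq4 and Coq10b, differences of 0.64 and 0.50. Inner membrane carriers had 5 of 8 lower, with a median of -0.04, Slc25a1 at -0.35 and Slc25a12 at -0.28.

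**Figure D4:**
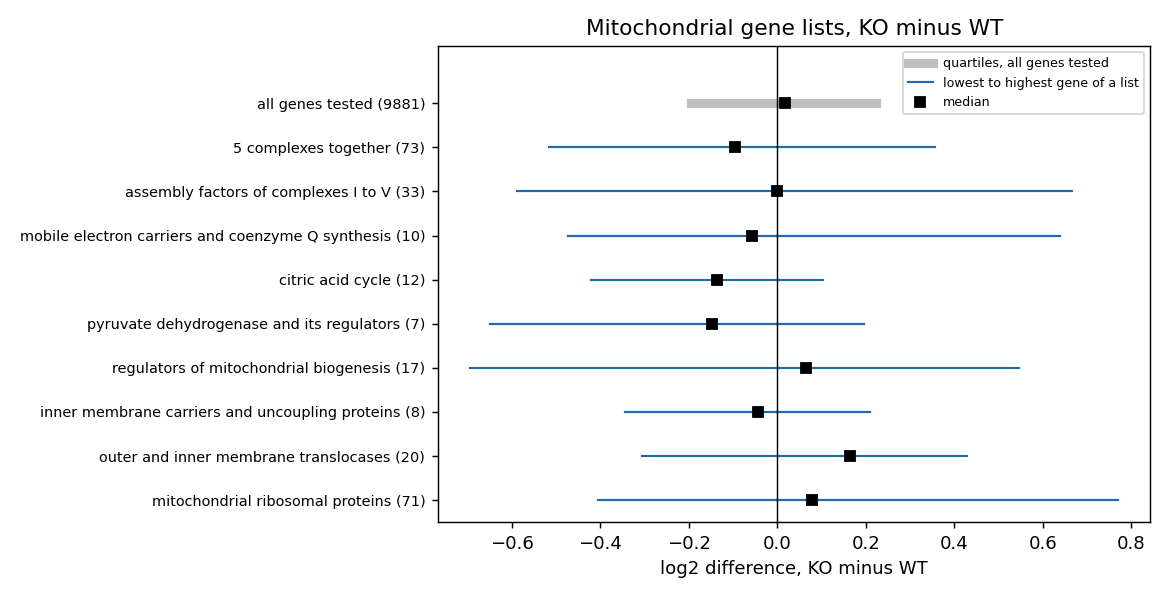
Log2 difference (KO minus WT, horizontal axis) for the 73 tested genes of the 5 complexes and for 8 further mitochondrial lists, with the median as a square, the range from the lowest to the highest gene as a line and the number of genes in brackets; the grey bar gives the quartiles of all genes tested, -0.20 and 0.22. The list medians run from -0.15 to 0.17, and the ranges all span 0.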

How the data were processed

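Biotin-labelled RNA of KO and WT cultures was measured on 4 Illumina arrays per group, according to the labels' protocols. The authors deposited 1 intensity per probe and array for 25697 probes on a linear scale, from -12.8 to 20141; the processing software, and any slide or scan date, are not given in the sources used here. Its negative values show background subtraction. The share of probes above the background limit was near-equal, at 53.0% to 53.2% per array. The same value also recurred on different arrays, such as 13003.3 for Atp5b. Both are marks of quantile normalization. A further deposited table was not used, because its 16 value columns match no sample label.

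Values were taken as log2(intensity + 16). The background limit of 6.30 leaves 5% of the negative values, mirrored around 0, above it. A probe above it on at least 3 arrays was bright, as 14453 were. Names came from the platform annotation, which can be old: 23978 probes had 1 symbol, 0 several and 1719 none. The brightest probe of each gene was tested with limma (lmFit, eBayes; 3 KO against 3 WT replicates, no block), adjusted by Benjamini-Hochberg over 9881 genes and called at an adjusted p under 0.05. All SEs, 95% intervals and p-values of single genes are limma's. The fit was also run on simulated data, with the outcome not reported here. Replicate intensities of the averaged arrays are back-transformed log2 means.

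The members, lists and array pairing were chosen with earlier results of these data known, so counts and medians of lists are descriptions, without a p. Named genes were, per complex, the 3 largest differences and the smallest, the brightest and dimmest, any with an unadjusted p under 0.05 or no overlap, the tissue isoforms with partners, and 2 genes per further list. Cox7b2 and its partner Cox7b, Ndufs3, Ndufs4, Atp5j, Ndufs7, Ndufs8, Ndufv1, Ndufs1, Uqcrq, Cox7a2l, the Ndufaf genes, Acta1 and the NRF1-motif genes were named outside this rule, after their values were seen. R 4.3.3, limma 3.58.1, statmod 1.5.0 and matplotlib 3.10.9 were used. No list was tested as a set, and the number of arrays limits the precision.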

Additional observations from a re-analysis of the deposited data

How the results depend on the processing

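The sign of the difference held under all 19 alternatives for 45 of the 75 members that had them all. It held under all 18 for 3 of the 4 dim members that a limit on all 8 arrays leaves out. No median of a complex changed sign. With the replicate block and with limma's trend the difference is the same by calculation, so the sign could not change there. The same holds for the changed filters, and for the mean of all bright probes, wherever the probe used stays the same. The number of members called stayed at 0 except with array weights, where it was 1, Ndufv3. The weights also brought Surf1, Pdk1, Mrpl38 and Mrps6 past the threshold. The cause was not tested. The number of all genes called, 70, was 261 with the arrays averaged as labelled, 277 with the pairs as a random block, 940 with array weights, and 5 to 264 with 1 replicate left out. Taken as labelled, the replicate numbers showed no common pairing of the samples (correlations of deviations 0.06, 0.02 and -0.35). The KO numbers are in doubt, because 1 KO array was not the neighbour of the array that its label gives. With KO replicates 1 and 3 exchanged, the correlations were 0.16 (KO 3, WT 1), 0.02 (KO 2, WT 2) and 0.27 (KO 1, WT 3). With KO replicates 2 and 3 exchanged instead, they were 0.06 (KO 1, WT 1), 0.23 (KO 3, WT 2) and 0.21 (KO 2, WT 3). Whether the samples were paired was therefore not decided. With the replicate block, on the numbers as labelled, 21 genes were called, 0 of them members.

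The median of the members, -0.08, was -0.10 without the 1.1 arrays, -0.049 with array weights and -0.10 without the assembly factors and Cox7a2l. For complex I, at -0.05, it was -0.080 with arrays averaged as labelled, -0.10 without the 1.1 arrays, -0.10 with array weights, -0.038 centred on ribosomal protein genes, and -0.11 to -0.061 with 1 replicate left out. Complex IV, at -0.10, was -0.049 with array weights, -0.058 with no filter, -0.054 without KO replicate 1 and otherwise down to -0.11 with 1 replicate left out. With 1 replicate left out, complex II ran from -0.20 to -0.0053, complex III from -0.19 to -0.087 and complex V from -0.11 to -0.010. Dim probes near the background limit, such as Uqcrfs1, Cox6b2 and Ndufb11, bound what their differences can show.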

Other observations

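Bright probes of 1 gene did not always give the same sign. Of the 14 members with several bright probes 8 had the same sign in all and 6 did not, namely Atp5j, Cox6b1, Cox6b2, Ndufa8, Ndufc1 and Sdhb. Ndufs4, an accessory subunit of complex I, differed by 0.03 with its brightest probe and by 0.21, 0.31 and 0.25 with the others. The probe at 0.31 read 878, 958 and 931 in KO and 701, 773 and 743 in WT, without overlap. Atp5j, a stalk subunit of ATP synthase, differed by -0.13 with its brightest probe and by 0.25 and 0.09 with the others.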
